A study of Mus musculus with 24 samples.

Results

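Rab4a and Wdfy1, together with 7 related genes of the endosomal system (Rab4b, Rab5a, Rab5b, Rab5c, Rab7, Rab11a and Rab11b), were followed across mouse hearts sampled 3 weeks after myocardial infarction. The 9 genes were taken by name from a table of 21878 genes. Rab4a and Wdfy1 were chosen by their RNA levels, which were sharply low in 1 of the 4 groups, the swimming mice with the empty vector, and the other 7 because they belong to the same pathway. All 9 were among the 13501 genes with enough counts to be tested.

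Every group came from ovariectomised (OVX) mice with a myocardial infarction (MI), and differed in vector and in training. The miR-21 swim group (5 libraries) had received AAV9-OE miR-21, an adeno-associated virus that overexpresses the microRNA miR-21, and had trained by swimming before the infarction. The empty swim group (6 libraries) had received AAV9-Empty and had trained in the same way. The miR-21 no-swim group (6 libraries) had AAV9-OE miR-21 without training, and the empty no-swim group (6 libraries) had AAV9-Empty without training. The labels give no strain, age, vector promoter or transduced cell type, and leave it unsaid whether every library came from its own animal, so a p-value here reflects only how much these samples vary. The level of miR-21 was not analysed here, since libraries of poly(A) mRNA do not hold mature microRNAs.

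Rab proteins are small GTPases that mark the membranes through which internalised receptors travel. Rab5 acts on early endosomes, Rab4 on the fast route by which cargo returns from them to the cell surface, Rab11 on the slower route through recycling endosomes, and Rab7 on late endosomes that deliver cargo to lysosomes. In cardiomyocytes, Rab4 is known for the recycling of beta-adrenergic receptors and of the insulin-responsive glucose transporter. Wdfy1 is a protein with a FYVE domain, which binds the early endosomal lipid phosphatidylinositol 3-phosphate, and it is known as an adaptor that brings TRIF to the Toll-like receptors Tlr3 and Tlr4.

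Libraries held 12744241 to 14657630 counts. All 10 cardiomyocyte markers were present in every library, and their summed level was 61791 to 125745 CPM in the miR-21 swim group, 94377 to 108898 in the empty swim group, 108597 to 118989 in the miR-21 no-swim group and 78299 to 113028 in the empty no-swim group. CPM here is the read count scaled to library size with trimmed-mean (TMM) factors. Replicate 2 of the miR-21 swim group stood apart: it held the lowest cardiomyocyte sum and the highest macrophage sum of all 23 libraries (953 CPM), and an adipocyte sum of 326 CPM. Replicates 2 and 5 of the empty no-swim group had adipocyte sums of 354 and 289 CPM, against at most 20.3 CPM in the remaining libraries. The titles carry numbers in a low and a high series, whose meaning the labels do not give: all empty swim libraries and replicates 3 to 5 of the miR-21 swim group are in the high series, and all others in the low series. Swimming and number series therefore cannot be told apart under the empty vector from those groups alone.

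Rab4a RNA in the empty swim group averaged 30.2% of its mean in the other 17 libraries, or 4.56 ± 0.72 CPM (SD, n = 6) against 15.1 ± 2.4 CPM (SD). The 5 miR-21 swim libraries had 17.9, 10.5, 15.9, 13.99 and 18.5 CPM. The 6 empty swim libraries had 5.51, 4.75, 4.83, 3.34, 4.25 and 4.67 CPM. The 6 empty swim libraries all lay below every other library, the nearest being replicate 2 of the miR-21 swim group. The miR-21 no-swim group had a lowest, median and highest level of 13.8, 16.6 and 18.4 CPM, and the empty no-swim group had 12.2, 13.5 and 14.4 CPM. These values rest on 48 to 77 reads per library in the empty swim group, against 179 to 240 reads in each of the other 17 libraries. As a description of the values that chose the gene, the log2 difference was -1.57 ± 0.13 (SE) for the empty swim against the empty no-swim group and 1.75 ± 0.13 for the miR-21 swim against the empty swim group. The effect of swimming under the miR-21 vector minus that under the empty vector was 1.48 ± 0.18 on the log2 scale.

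Wdfy1 showed a smaller drop in the same 6 libraries, with a mean of 16.98 ± 4.21 CPM (SD, n = 6), against 33.8 ± 2.4 CPM in the other 17 libraries (SD). The miR-21 swim libraries had 33.0, 33.2, 33.4, 32.8 and 35.1 CPM. The empty swim libraries had 16.0, 14.9, 14.03, 17.4, 25.2 and 14.3 CPM. Replicate 5, the highest of them, was still below the lowest other library, at 30.1 CPM. The miR-21 no-swim group had a lowest, median and highest level of 30.1, 34.1 and 34.9 CPM, and the empty no-swim group had 30.4, 34.6 and 39.6 CPM, so that these 3 groups overlapped. The log2 difference was -1.02 ± 0.11 (SE) for the empty swim against the empty no-swim group and 0.98 ± 0.11 for the miR-21 swim against the empty swim group, again as a description without a test. In a bulk sample, fewer cells that express a gene and less of its RNA per cell cannot be told apart.

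**Figure D1:**
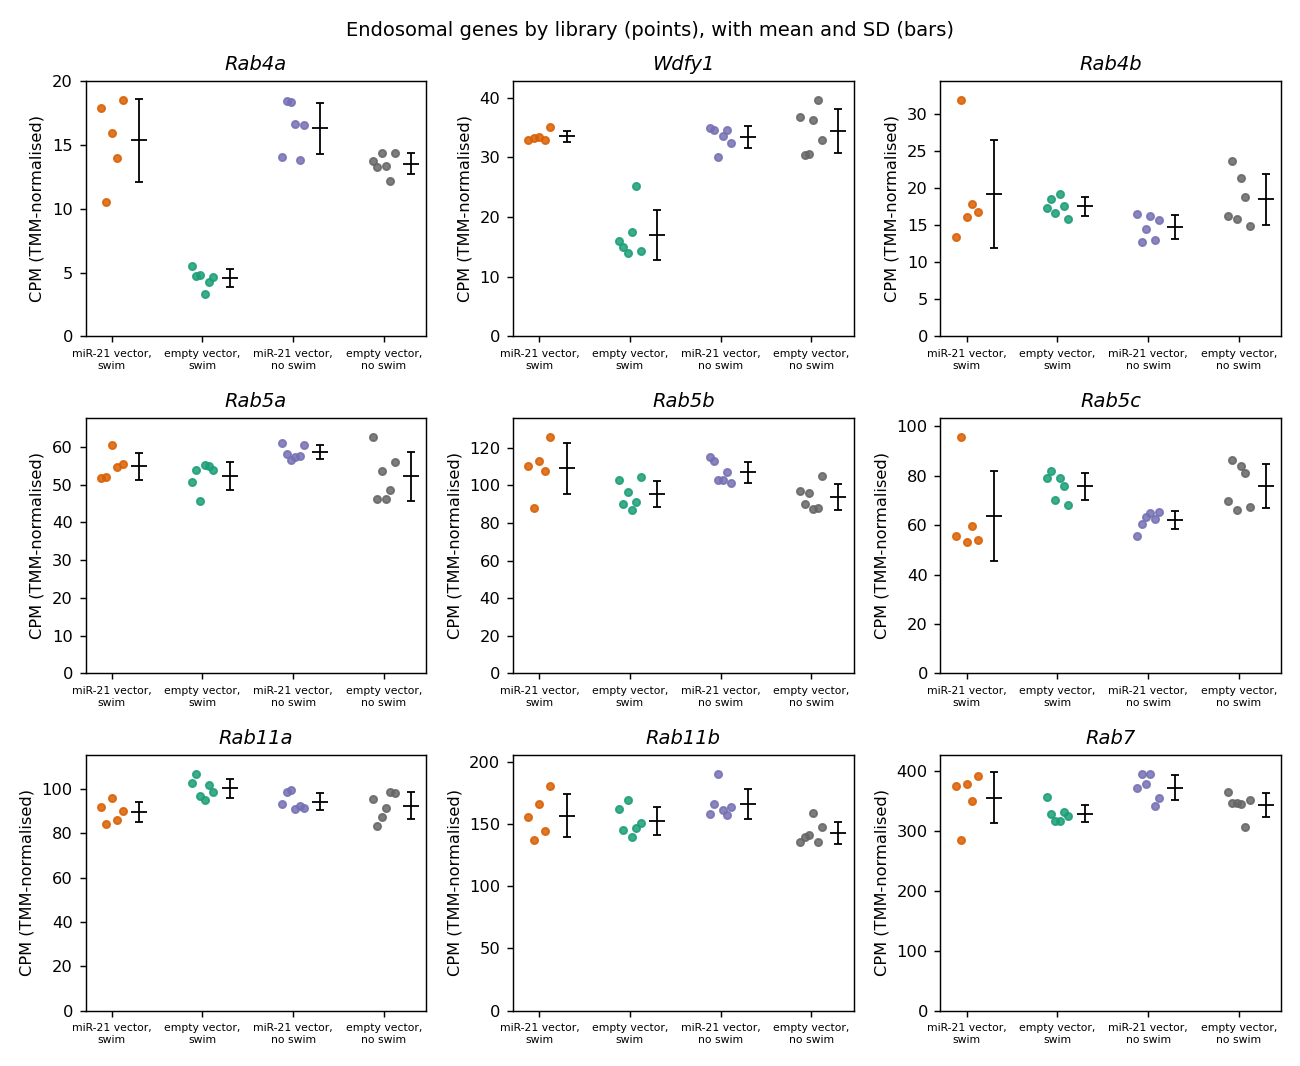
Each panel plots 1 endosomal gene, with the level in CPM on the vertical axis and the 4 groups on the horizontal axis; each point is a library and the bars give the mean and SD. Rab4a (3.34 to 5.51 CPM) and Wdfy1 (14.03 to 25.2 CPM) lie apart and low in the empty swim group, while the groups overlap for the other genes in most pairs.

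Within the high number series, the miR-21 swim replicates 3, 4 and 5 had 15.9, 13.99 and 18.5 CPM of Rab4a and 33.4, 32.8 and 35.1 CPM of Wdfy1, against the 6 empty swim libraries given above. These values are part of those that chose the genes and are given as a description. With number series as a term, the log2 difference between the empty swim and empty no-swim groups was -1.76 for Rab4a and -1.05 for Wdfy1. Only the miR-21 swim group spans both series, so the term rests on its replicates 1 and 2 against 3 to 5. Replicate 2 is the library with the low cardiomyocyte sum. These adjusted values therefore do not settle the part of the series. Summed endothelial markers were 1351.55 to 1540 CPM in the empty swim group, with all 7 markers detected, against 1043 to 1336 CPM in the other 17 libraries. The 6 smooth muscle and pericyte markers summed to 1214 to 1462 CPM in the empty swim group, against 932 to 1279 CPM in the other 17. Single markers went both ways against the empty no-swim group. Their log2 differences ran from -0.62 to 0.56 for smooth muscle and pericyte (median -0.0094, 2 called rises, 0 falls). For endothelial markers they ran from -0.21 to 0.48 (median 0.23, 4 called rises, 0 falls). The part of these vascular markers in the low Rab4a and Wdfy1 levels was not tested.

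Measured over all 13501 genes, 20 (0.148%) had every empty swim library below all 17 others and 56 (0.415%) had every one above. By the width of the gap, the lowest other library minus the highest empty swim library in log2 CPM, Rab4a had rank 2 at 0.92 and Wdfy1 rank 5 at 0.26. Both genes were chosen for this low level, so their ranks are a description and no test. The widest gap belonged to Gm41885, a predicted gene with a gap of 3.46. Tbc1d15, which encodes an inactivator of Rab7, was among the 20 genes, at rank 19 with a gap of 0.012. Just inside the limit, at rank 20, was Tax1bp1 (0.0024), and just outside it Sidt2 (-0.0012).

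**Figure D2:**
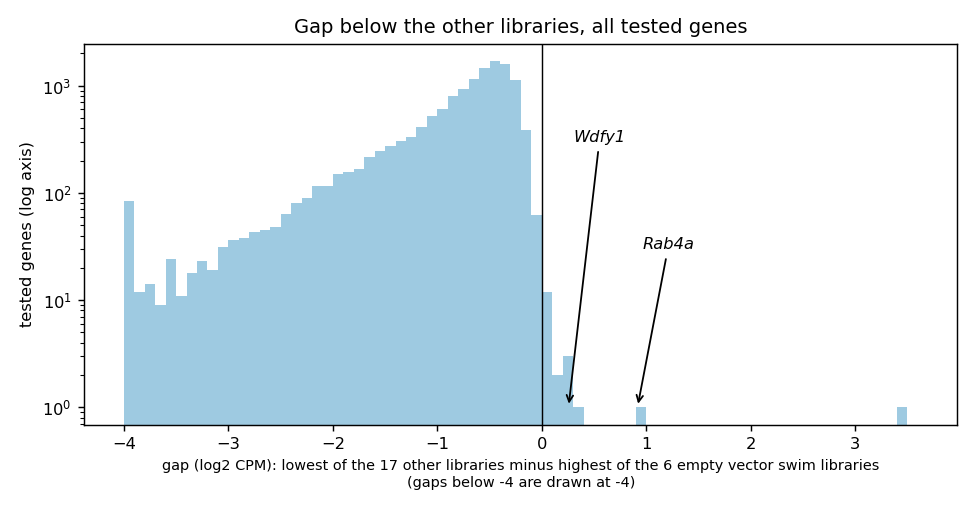
The histogram shows, for 13501 tested genes, the gap in log2 CPM (horizontal axis) between the lowest of the 17 other libraries and the highest empty swim library, with the number of genes on a log vertical axis; values above 0 mean that the groups do not overlap. Rab4a (0.92) and Wdfy1 (0.26) are marked to the right of 0, and the bar at the far right is Gm41885 (3.46). The places of Rab4a and Wdfy1 follow from the way they were chosen.

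Outside the empty swim group, neither gene passed the test. For Rab4a the miR-21 no-swim group averaged 16.3 ± 2.0 CPM and the empty no-swim group 13.5 ± 0.8 CPM (SD, n = 6 each), a log2 difference of 0.27 ± 0.12 (SE) with an adjusted p of 0.149 in edgeR's quasi-likelihood test and a 95% interval of 0.019 to 0.52. Here 4 of the 6 miR-21 libraries lay above all 6 empty vector libraries, and how many of all genes did so was not counted. Swimming under the miR-21 vector gave a log2 difference of -0.087 ± 0.12 for Rab4a (adjusted p = 0.714, 95% interval -0.35 to 0.17). Wdfy1 differed by -0.046 ± 0.10 on the log2 scale between the miR-21 and empty vectors without swimming (adjusted p = 0.792, 95% interval -0.26 to 0.17). Swimming under the miR-21 vector moved Wdfy1 by 0.0064 ± 0.11 (adjusted p = 0.980, 95% interval -0.22 to 0.23). The miR-21 swim group varied little for Wdfy1, with a coefficient of variation of 2.74%, and more for Rab4a, with 21.1%.

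Rab4b, the close relative of Rab4a that shares its fast recycling role, was not low in the empty swim group. It had 17.5 ± 1.2 CPM there, against 18.4 ± 3.5 CPM in the empty no-swim group (SD, n = 6 each), a log2 difference of -0.078 ± 0.16 (SE, adjusted p = 0.802, 95% interval -0.40 to 0.25). The 5 miR-21 swim libraries had 13.4, 31.8, 16.1, 17.8 and 16.7 CPM of Rab4b. Replicate 2, the library with the low cardiomyocyte sum, was the highest of all 23, and the other 4 lay within the range of the remaining groups. Read per length, in the deposited FPKM values, which scale reads to gene length and library depth, Rab4a made up 16.4 ± 2.8% of the summed Rab4a and Rab4b level in the empty swim group. That share was 39.0 ± 11.7% in the miR-21 swim group, 45.4 ± 4.5% in the miR-21 no-swim group and 35.9 ± 5.2% in the empty no-swim group (SD). The highest share in the empty swim group, 19.3%, was just under the lowest elsewhere, 19.9% in replicate 2 of the miR-21 swim group. The summed Rab4a and Rab4b level was 18.1 ± 1.2 FPKM in the empty swim group, against 25.0 ± 3.6 FPKM in the empty no-swim group. It was 26.9 ± 7.2 FPKM in the miR-21 swim group and 22.1 ± 1.6 FPKM in the miR-21 no-swim group (SD). The highest empty swim sum, 19.7 FPKM, was above the lowest miR-21 no-swim sum, 19.2 FPKM. Share and sum both hold the Rab4a level that chose the gene, so they are descriptions. A lower Rab4a level was thus accompanied by a Rab4b level whose groups overlapped.

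Ordered per length by their mean over the 23 libraries, the 9 genes ran from Rab7 at 132.9 FPKM through Rab11a (40.4), Rab5c (35.5), Rab5b (29.8), Rab11b (24.7), Rab5a (23.01), Rab4b (15.0) and Rab4a (7.82) to Wdfy1 (3.93). Rab7 was above Rab11a in all 23 libraries and its range did not touch that of any other member. The other neighbours in this order overlapped in range: Rab11a exceeded Rab5c in 20 of 23 libraries, Rab5c exceeded Rab5b in 16 and Rab5b exceeded Rab11b in 22. Rab4b exceeded Rab4a, and Rab4a exceeded Wdfy1, in 21 of 23 libraries each. Rab7 was above 96.5% of all tested genes in FPKM, and Wdfy1 above 39.2% of them. Over the 17 libraries outside the empty swim group, which the choice of Rab4a and Wdfy1 did not single out as low, the coefficient of variation in FPKM was 34.8% for Rab4b, 24.8% for Rab5c, 11.7% for Rab4a, 10.5% for Wdfy1 and 4.37% to 7.75% for the other 5 genes.

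With swimming under the empty vector, none of the 7 related genes changed in edgeR's test, against 7.46% of all tested genes. At an unadjusted p under 0.05 there was 1 of the 7, Rab11a, against 23.3% of all tested genes, and DESeq2 called 0. Their log2 differences ran from -0.078 to 0.12, with a median of 0.0058 beside -0.0048 over all tested genes. Rab11a, of the slow recycling route, had a lowest, median and highest level of 95.02, 100.3 and 106.7 CPM in the empty swim group and 83.5, 93.5 and 98.5 CPM in the empty no-swim group, a log2 difference of 0.12 ± 0.05 (SE, adjusted p = 0.154). Of the 3 Rab5 genes, which act in early endosome fusion, Rab5a had a lowest, median and highest level of 45.6, 53.9 and 55.3 CPM in the empty swim group and 46.1, 51.1 and 62.6 CPM in the empty no-swim group. The ranges lay largely on top of each other, and the log2 differences were 0.0058 ± 0.07 (Rab5a), 0.022 ± 0.07 (Rab5b) and -0.0025 ± 0.11 (Rab5c). Rab7, of the late endosome, had 316, 326 and 356 CPM as its lowest, median and highest level in the empty swim group and 305, 346 and 365 CPM in the empty no-swim group. It differed by -0.063 ± 0.07 and Rab11b, of the slow recycling route, by 0.091 ± 0.07 on the log2 scale. The 95% intervals of these 5 genes stayed within -0.24 to 0.24, so that differences of the size seen for Rab4a lie outside them.

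Between the miR-21 and empty vectors with swimming, 0 of the 7 related genes changed in edgeR's test, against 4.58% of all tested genes. At an unadjusted p under 0.05 there were 3 (Rab5b, Rab5c and Rab11a), against 19.8% of all tested genes. Rab11a had 92.0, 84.2, 95.9, 85.8 and 90.0 CPM in the miR-21 swim libraries, against 95.02 to 106.7 CPM in the empty swim libraries. In 4 of the 5 miR-21 libraries it lay below all 6 empty vector libraries, a split whose share over all genes was not counted. The log2 difference was -0.16 ± 0.05 (SE, adjusted p = 0.0781), and DESeq2 called Rab11a, with an adjusted p of 0.0259, where it called 7.19% of all genes. Rab5c had 55.7, 95.7, 53.3, 59.8 and 54.0 CPM in the miR-21 swim libraries, against a lowest, median and highest level of 68.1, 77.4 and 81.9 CPM in the empty swim libraries. The other 4 miR-21 swim libraries were below every empty swim library, while replicate 2 was above them all. Setting replicate 2 apart followed from seeing these values, and the share of all genes with such a split was not counted. The log2 difference over all libraries was -0.25 ± 0.12 (SE, adjusted p = 0.245).

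Rab5b had 111, 88.0, 113, 108 and 126 CPM in the miR-21 swim libraries, against 87.2, 93.9 and 104 CPM as the lowest, median and highest level in the empty swim libraries. Here too replicate 2 stood apart, inside the empty swim range, while the remaining 4 were above all 6 empty swim libraries. This split was again seen after the fact and its share over all genes was not counted. Over all libraries the groups overlapped. The log2 difference was 0.19 ± 0.07 (SE, adjusted p = 0.138). Without replicate 2, edgeR called Rab5b (log2 difference 0.27, adjusted p = 0.00811), Rab5c (-0.43, adjusted p = 0.000678) and Rab7 (0.19, adjusted p = 0.0326). In that fit 13.8% of all tested genes were called, so 3 of 7 stands beside a larger background. Without the 3 libraries with high adipocyte markers the same 3 genes were called and 17.3% of all genes. With number series as a term, Rab5b (0.28, adjusted p = 0.0435) and Rab5c (-0.44, adjusted p = 0.0338) were called, with 5.24% of all genes.

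Between the miR-21 and empty vectors without swimming, none of the 9 genes passed edgeR's test, against 2.25% of all tested genes. At an unadjusted p under 0.05 there were 6 (Rab4a, Rab4b, Rab5a, Rab5b, Rab5c and Rab11b), against 28.4% of all tested genes, and DESeq2 called 1, Rab11b (log2 difference 0.21, adjusted p = 0.0316), where it called 9.15% of all genes. Rab11b had a lowest, median and highest level of 157, 163 and 190.3 CPM in the miR-21 no-swim group and 135, 141 and 159 CPM in the empty no-swim group. In edgeR's test its log2 difference was 0.22 ± 0.07 (SE, adjusted p = 0.0714). Rab5c was at 55.7, 62.8 and 65.3 CPM in the miR-21 no-swim group and 66.3, 75.4 and 86.6 CPM in the empty no-swim group. The groups did not overlap, as for 2.41% of all tested genes in that direction, and the log2 difference was -0.29 ± 0.11 (SE, adjusted p = 0.111).

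Rab4b, at 14.71 ± 1.64 CPM in the miR-21 no-swim group and 18.4 ± 3.5 CPM in the empty no-swim group (SD, n = 6 each), differed by -0.33 ± 0.16 (SE, adjusted p = 0.173). Rab5a and Rab5b differed by 0.17 ± 0.07 (adjusted p = 0.127) and 0.19 ± 0.07 (adjusted p = 0.104), and Rab7 by 0.12 ± 0.07 (adjusted p = 0.259). Rab5a had a lowest, median and highest level of 56.5, 57.9 and 61.0 CPM in the miR-21 no-swim group and 46.1, 51.1 and 62.6 CPM in the empty no-swim group, and Rab7 had 341, 374 and 394 CPM against 305, 346 and 365 CPM in the same groups. The direction was thus not common to the 3 Rab5 genes. Without replicate 2 of the miR-21 swim group, which lends only its spread to this comparison, edgeR called 5 of the 9 genes (Rab4a, Rab4b, Rab5b, Rab5c and Rab11b) and 21.3% of all tested genes. Without replicate 1 of the empty no-swim group it called Rab5a (log2 difference 0.22, adjusted p = 0.0444), with 4.58% of all tested genes.

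Summed fibroblast markers were 2439 CPM in replicate 2 of the miR-21 swim group and 3102, 2484 and 2757 CPM in replicates 2, 4 and 5 of the empty no-swim group, against at most 1556 CPM in the other 19 libraries. Those 4 libraries had 31.8, 23.7, 21.3 and 18.8 CPM of Rab4b. They had 95.7, 86.6, 83.8 and 81.0 CPM of Rab5c. The other 19 libraries reached 19.2 CPM of Rab4b and 81.9 CPM of Rab5c, in replicates 4 and 2 of the empty swim group, so the lowest of the 4 lay within their range. Leaving out only the 3 libraries with high adipocyte sums drops all of these but replicate 4. It changed no direction of Rab4b or Rab5c between the vectors without swimming, which says nothing of the size. Over the 29 alternatives, which include this one, Rab4b ran from -0.39 to -0.21 (log2), beside -0.33 in the main fit. Rab5c ran from -0.34 to -0.21, beside -0.29. The part of these markers in the differences was not tested.

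With swimming under the miR-21 vector, none of the 9 genes passed edgeR's test, against 0.17% of all tested genes, and DESeq2 called 0 of them. At an unadjusted p under 0.05 there was 1, Rab4b, against 18.8% of all tested genes. Rab4b had 19.2 ± 7.3 CPM in the miR-21 swim group (SD, n = 5) and 14.71 ± 1.64 CPM in the miR-21 no-swim group (SD, n = 6), a log2 difference of 0.39 ± 0.16 (SE, adjusted p = 0.215). The wide spread came with replicate 2, at 31.8 CPM. For the other 8 genes the log2 difference lay between -0.095 and 0.040. The interaction, swimming under the miR-21 vector minus swimming under the empty vector, passed the test for none of the 7 related genes, against 0.541% of all tested genes, and DESeq2 called 0. At an unadjusted p under 0.05 there was 1, Rab11a (-0.19 ± 0.07, adjusted p = 0.143), against 21.5% of all tested genes.

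**Figure D3:**
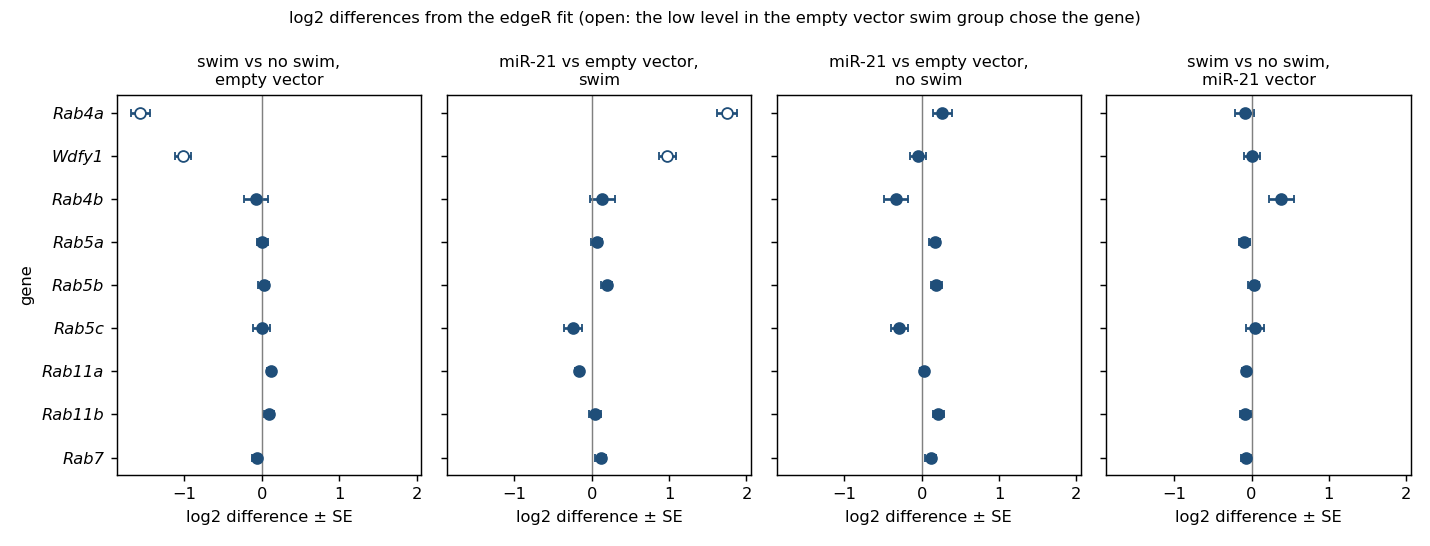
The 4 panels give the log2 difference with its SE (horizontal axis) of the 9 genes (vertical axis) in 4 comparisons between 2 groups each; open points mark Rab4a and Wdfy1 where their low level in the empty swim group chose them. Rab4a (-1.57 and 1.75) and Wdfy1 (-1.02 and 0.98) stand far from 0 in the comparisons that hold the empty swim group, and no filled point passes the test.

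MicroRNAs bind messenger RNAs through their seed, bases 2 to 8, and usually lower the level of the target. The sequence of the overexpressed microRNA, from RefSeq on GRCm38.p6 (chr11:86584120-86584141, minus strand), is shown with its seed in capitals, so that the match among the 9 genes can be read against it.
mmu-miR-21a-5p: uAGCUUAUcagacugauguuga
The complement of the seed, ATAAGCT, was searched in the longest 3′ untranslated region of each gene in GENCODE M21 on GRCm38, on the transcribed strand. It was found in 1018 of 12987 tested genes with such a region (7.839%) and in 1 of the 9 endosomal genes, Rab11a. The match starts at base 359 of a region of 1553 bases and is printed with its flanks, the match in capitals.
Rab11a site: agacaaccttagaaATAAGCTattgttttg
Rab11a, on chromosome 9, differed between the miR-21 and empty vectors by -0.16 ± 0.05 with swimming (log2, SE, adjusted p = 0.0781) and by 0.029 ± 0.05 without it (adjusted p = 0.719). These letters were absent from the window searched for Rab4a and Wdfy1. A match of letters is a description and no measure of binding.

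By Pearson correlation of log2 CPM over the 23 libraries, which share depth scaling and, for these genes, the separation of the empty swim group, the 8 named genes most like Rab4a among 12486 were Nnt (0.90), Camk2b (0.88), Ube2h (0.88), Wdfy1 (0.87), Atp6v0a1 (0.87), Ppip5k1 (0.85), Trim35 (0.85) and Slco3a1 (0.84). Camk2b encodes a calcium and calmodulin dependent kinase, Ube2h a ubiquitin-conjugating enzyme and Atp6v0a1 a subunit of the proton pump that acidifies endosomes. For Wdfy1 they were Camk2b (0.87), Rab4a (0.87), Ube2h (0.86), Dynlt1b (0.84), Trim35 (0.84), Sos1 (0.84), Fads3 (0.84) and Celf2 (0.82), where reads of Dynlt1b may be shared with near-identical copies. Over the 17 libraries outside the empty swim group, Rab4a correlated with Wdfy1 at -0.26, with Camk2b at 0.25 and with Ube2h at -0.079, but with Nnt at 0.87. Over those 17 it correlated with Rab7 at 0.88, Rab11b at 0.80 and Rab5b at 0.72, and with Rab4b at -0.73 and Rab5c at -0.75. The summed cardiomyocyte markers followed Rab4a over the same 17 libraries with a correlation of 0.83. Replicate 2 of the miR-21 swim group and replicate 5 of the empty no-swim group had the lowest cardiomyocyte sums (61791 and 78299 CPM) and also the lowest levels of Rab4a, Nnt and Rab7 among the 17. Without replicate 2, which was left out after seeing the data, the correlation with Rab4a was 0.81 for Nnt, 0.83 for Rab7, 0.80 for Rab11b, -0.58 for Rab4b, -0.64 for Rab5c and 0.75 for the cardiomyocyte sum over 16 libraries. The part of the cardiomyocyte markers in these likenesses was not tested.

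Nnt encodes the mitochondrial transhydrogenase that makes NADPH, and part of it is deleted in the substrain C57BL/6J. As the gene most like Rab4a over all libraries, it shares the low empty swim level by which Rab4a was chosen, so its values there are a description with no test. The miR-21 swim libraries had 1456, 536, 1642, 1043 and 1470 CPM. The empty swim group had a lowest, median and highest level of 504, 508 and 615 CPM, and 4 of the 5 miR-21 swim libraries lay above it, with replicate 2 inside its range. The miR-21 no-swim group had 1184, 1291 and 1373 CPM and the empty no-swim group 740, 994 and 1098 CPM. The log2 difference was -0.83 ± 0.17 (SE) for the empty swim against the empty no-swim group and 1.21 ± 0.18 for the miR-21 swim against the empty swim group. Between the vectors without swimming the groups did not overlap, as for 3.03% of all tested genes in that direction, and the log2 difference of 0.43 ± 0.17 did not pass the test (SE, adjusted p = 0.116).

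Of 3 other genes with known sequence differences between C57BL/6 substrains, Cyfip2 differed by -0.024 ± 0.13 (log2, SE) between the empty swim and empty no-swim groups (adjusted p = 0.936). It differed by 0.45 ± 0.14 between the miR-21 swim and empty swim groups (adjusted p = 0.0613) and by 0.38 ± 0.13 between the vectors without swimming (adjusted p = 0.0841), in both cases in the same direction as Nnt. Crb1 and Nlrp12 were at most 0.71 and 1.0 CPM in any library. The labels name no substrain, and its part in the Rab4a level was not tested.

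**Figure D4:**
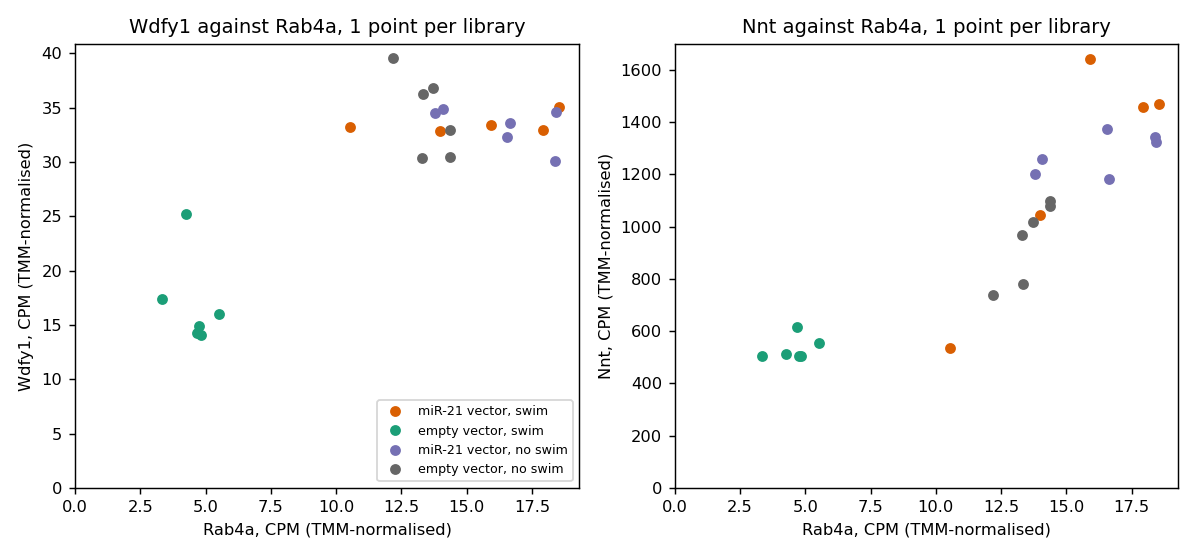
Both panels have 1 point per library, coloured by group, with Rab4a in CPM on the horizontal axis; the vertical axis is Wdfy1 (left) or Nnt (right) in CPM. Wdfy1 falls into a low cluster of 6 empty swim libraries and a flat one of 17, while Nnt increases with Rab4a among the 17 as well, with replicate 2 of the miR-21 swim group (10.5 CPM of Rab4a, 536 CPM of Nnt) lowest among them.

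Beyond the 9 genes, 9 lists of the endosomal pathway and of Tlr3 and Tlr4 signalling held 170 tested genes. Between the empty swim and empty no-swim groups 4 rose and 4 fell, or 4.71% against 7.46% of all tested genes, with a median log2 difference of 0.0025. Between the miR-21 swim and empty swim groups 4 rose and 2 fell, or 3.53% against 4.58%. Between the vectors without swimming 1 fell, or 0.588% against 2.25%. With swimming under the miR-21 vector 0 changed, against 0.17%, and in the interaction 0, against 0.541%. DESeq2 called 12 of the list genes for the empty swim against the empty no-swim group (10.5% of all genes), 9 between the vectors without swimming (9.15%), 10 between the vectors with swimming (7.19%), 5 for swimming under the miR-21 vector (2.91%) and 7 in the interaction (5.33%). With number series as a term edgeR called 6 between the vectors without swimming (6.75% of all genes) and 6 with swimming (5.24%). With that term it called 7 for swimming under the miR-21 vector (7.97%). For the empty swim against the empty no-swim group the list count was 13 without the 3 libraries with high adipocyte markers (7.69% of the list, against 11.6% of all genes), 1 with number series as a term (0.588%, against 1.21%) and 14 without replicate 2 of the miR-21 swim group (8.24%, against 14.2%). For the miR-21 swim against the empty swim group it was 21 without the 3 libraries (12.4%, against 17.3%). It was 20 without replicate 2 of the miR-21 swim group (11.8%, against 13.8%). Without replicate 3 or 5 of that group it was 3 (1.76%, against 3.06% or 2.66%). For the vectors without swimming it was 28 without replicate 2 of the miR-21 swim group (16.5%, against 21.3%). It was 6 without replicate 3 of the empty no-swim group (3.53%, against 5.26%). Without any other library it was between 0 and 3 (at most 1.76%, against 0.127% to 4.58% of all genes). For swimming under the empty vector it was 4 or 5 without replicate 1, 3, 4, 5 or 6 of the empty swim group. The same held without replicate 1, 4 or 5 of the empty no-swim group. In these fits 2.35% or 2.94% of the list were called, against 4.50% to 6.87% of all genes.

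Over all tested genes, 7.46% were called between the empty swim and empty no-swim groups and 4.58% between the miR-21 swim and empty swim groups. The calls in each list below stand beside those shares. Among 18 effectors of Rab4 and Rab5 and early endosome genes, 1 rose in the empty swim group relative to the empty no-swim group and 0 fell. It was Appl2, an early endosomal adaptor that binds Rab5, at 119 ± 9.97 CPM in the empty swim group and 74.8 ± 8.9 CPM in the empty no-swim group (SD, n = 6 each), or 0.68 ± 0.12 on the log2 scale (SE, adjusted p = 0.00135). Its call ended only with number series as a term (0.41, adjusted p = 0.413), a term that rests on the miR-21 swim libraries alone. Among 18 Rab11 effectors and recycling endosome genes, Ehd2, an ATPase of caveolae and recycling membranes, rose to 298 ± 33.8 CPM in the empty swim group, against 228 ± 14.4 CPM in the empty no-swim group (0.39 ± 0.07, adjusted p = 0.00286), and was 216 ± 19.1 CPM in the miR-21 swim group (-0.47 ± 0.08 against the empty swim group, adjusted p = 0.00158). Endothelial cells are also known to express Ehd2. Of 7 endothelial markers, 4 rose in the empty swim against the empty no-swim group, beside 7.46% of all tested genes. Their log2 differences ran from -0.21 to 0.48. In the miR-21 swim against the empty swim group 4 of the 7 fell, beside 4.58%, with log2 differences from -0.46 to 0.25. The part of these markers in the Ehd2 difference was not tested.

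Of 22 regulators of the Rab GTPase cycle, 1 rose and 1 fell in the empty swim against the empty no-swim group. These stand beside 7.46% of all tested genes. Rabggta, a subunit of the enzyme that attaches lipid anchors to Rab proteins, rose by 0.22 ± 0.05 (adjusted p = 0.0156). Tbc1d15 fell by 0.19 ± 0.06 (adjusted p = 0.0436). Tbc1d15 had 37.3 ± 3.2 CPM in the miR-21 swim group and 30.5 ± 0.4 CPM in the empty swim group (SD, n = 5 and 6), a rise of 0.29 ± 0.06 (adjusted p = 0.00629). Tbc1d5, which also inactivates Rab7, rose by 0.32 ± 0.07 in the same comparison (adjusted p = 0.00671). These 2 rises among the 22 stand beside 4.58% of all tested genes. None of 19 effectors of Rab7 and late endosome genes and none of 18 retromer, sorting nexin and WASH genes passed edgeR's test. This held in all 5 comparisons, where 0.17% to 7.46% of all tested genes passed. At those shares, lists of this size hold few calls or none. Among 21 enzymes and readers of phosphatidylinositol 3-phosphate, the lipid that Wdfy1 binds, Pik3c3, the kinase that makes it, rose by 0.24 ± 0.06 in the miR-21 swim against the empty swim group (adjusted p = 0.0279). Of 20 ESCRT genes, Vps25, a subunit of the sorting machinery, rose by 0.29 ± 0.07 in the empty swim against the empty no-swim group (adjusted p = 0.0216). Pik3c3 and Vps25 were each the only call of their list there, beside 4.58% and 7.46% of all tested genes.

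Among 18 cargo receptors that recycle through endosomes, Tfrc, the transferrin receptor and a classical cargo of Rab4 and Rab11, was 134 ± 9.7 CPM in the empty swim group and 271 ± 71.0 CPM in the empty no-swim group (SD, n = 6 each), a log2 difference of -1.01 ± 0.29 (SE, adjusted p = 0.0363). Tfrc was the only call of this list there, beside 7.46% of all tested genes. The miR-21 swim group had 178 ± 85.9 CPM of Tfrc (SD, n = 5) and did not pass against the empty swim group. In the miR-21 swim against the empty swim group 1 of the 18 rose and 1 fell, beside 4.58% of all tested genes. Slc2a1, the basal glucose transporter, rose by 0.27 ± 0.07 (adjusted p = 0.0356), and Kdr, the endothelial growth factor receptor and itself an endothelial marker here, fell to 223 ± 37.8 CPM in the miR-21 swim group, against 291 ± 15.9 CPM in the empty swim group (-0.39 ± 0.11, adjusted p = 0.0390). Among 16 genes of Tlr3 and Tlr4 signalling through TRIF, the pathway in which Wdfy1 acts, 0 rose and 2 fell in the empty swim against the empty no-swim group, beside 7.46% of all tested genes called in that comparison: the receptor Tlr4 (-0.51 ± 0.15, adjusted p = 0.0352) and the adaptor Traf3 (-0.41 ± 0.12, adjusted p = 0.0485). Tlr4 also fell in the miR-21 against the empty vector without swimming (-0.55 ± 0.15, adjusted p = 0.0490), in comparisons that share the empty no-swim libraries. Macrophages also express Tlr4, and their summed markers were 236 to 450 CPM in the empty swim group, 186 to 445 CPM in the miR-21 no-swim group and 262 to 860 CPM in the empty no-swim group, with all 6 detected. All 6 markers had lower means in both comparisons, with a median log2 difference of -0.53 (range -0.69 to -0.18) in the empty swim and -0.79 (range -1.06 to -0.62) in the miR-21 no-swim group against the empty no-swim group, and 0 passed the test. Their part in the Tlr4 difference was not tested.

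Of the calls among these list genes, those of Tbc1d15, Tbc1d5 and Ehd2 between the miR-21 swim and empty swim groups held under all 29 alternative settings. In the empty swim against the empty no-swim group, the calls of Rabggta and Ehd2 ended only with number series as a term, where the log2 difference of Rabggta was 0.11 (adjusted p = 0.668) and that of Ehd2 0.47 (adjusted p = 0.113). The call of Vps25 ended with that term (0.19, adjusted p = 0.583) and also without replicate 5 of the empty no-swim group (adjusted p = 0.0670). The call of Pik3c3 ended without replicate 3 (adjusted p = 0.0802) or 5 (0.0657) of the miR-21 swim group or replicate 6 of the empty swim group (0.0514). The others lay nearer to the threshold and depended on several single libraries. In the empty swim against the empty no-swim group Tlr4 held under 21, Tfrc under 17, Tbc1d15 under 15 and Traf3 under 7 of the 29, and Tlr4 between the vectors without swimming under 12. In the miR-21 swim against the empty swim group Slc2a1 held under 20 and Kdr under 19.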

How the data were processed

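Heart RNA was isolated with TRIzol and sequenced from TruSeq Stranded mRNA libraries, per the labels' protocols. The authors deposited a table of whole-number read counts per gene and a table of FPKM values (reads scaled to gene length and depth), both with gene symbols; the genome build is GRCm39 per the submitters' processing notes, while the aligner and counter were not given in the sources used here. Of 24 samples in the labels, 23 libraries were analysed: replicate 6 of the miR-21 swim group was not analysed here. The 46 other per-sample columns and the authors' comparison tables were not used. No 2 libraries held identical values.

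The 9 genes and all gene lists were chosen with earlier results of these data known. Counts were fitted for all 23 libraries with 1 mean per group in edgeR 4.0.16 (R 4.3.3, limma 3.58.1): filterByExpr, TMM scaling, robust quasi-likelihood fit and test, with Benjamini-Hochberg adjustment over 13501 genes and a threshold of 0.05. Log2 differences are given with SE, and 95% intervals use the t distribution with 19 residual degrees of freedom. Log2 CPM values use a prior count of 2. Genes named besides the 9 were, per list and comparison, up to 2 rises and 2 falls past the threshold with the smallest p, the 8 with the highest Pearson correlation with Rab4a or Wdfy1 (mean of at least 1 CPM, no predicted genes), and 4 genes that differ between C57BL/6 substrains. Genes next to Rab4a and Wdfy1 are not reported here. The widest gaps were named after their values were seen. The script was tested on simulated data. Alternatives were RLE scaling, no filter, a mean of at least 1 CPM, DESeq2 1.42.0, number series as a term, and leaving out each library, 29 per result with 1 chosen after seeing the data. The series term is estimated from the miR-21 swim group alone, since no other group spans both series. Sequences are from RefSeq and GENCODE M21 on GRCm38, and gene order is from GRCm38; no coordinate of the files was converted. Figures used matplotlib 3.10.9 in Python 3.11.15, and tables pandas 2.3.3 with numpy 2.4.6.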

Additional observations from a re-analysis of the deposited data

Results flagged for a closer look

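Of 36 sets of values (9 genes in 4 groups), 5 held a library far from the others of its group by Dixon's outlier test. For a single set of normal values chance gives about 1 in 20. The 36 sets come from the same 23 libraries and are not independent, so the count is a description and no test. Rab5c in replicate 2 of the miR-21 swim group had 95.7 CPM, above the other 4 libraries of that group (53.3 to 59.8 CPM). That library also had the lowest cardiomyocyte sum of all. Wdfy1 had 25.2 CPM in replicate 5 of the empty swim group, the highest of the 6, and 35.1 CPM in replicate 5 of the miR-21 swim group, whose other libraries lay between 32.8 and 33.4 CPM. Rab11b had 190.3 CPM in replicate 3 of the miR-21 no-swim group, the highest value of that group. Rab7 had 305.4 CPM in replicate 5 of the empty no-swim group, the lowest value of that group and the library with its lowest cardiomyocyte sum (78299 CPM).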

How the results depend on the processing

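The low empty swim level chose Rab4a and Wdfy1, so their values here are a description. With every empty swim library below all others, leaving out single libraries could hardly change the sign. The log2 differences of Rab4a and Wdfy1 in comparisons with the empty swim group kept their sign under all 29 alternatives. They ran from -1.76 to -1.49 for Rab4a and from -1.17 to -0.98 for Wdfy1 in the empty swim against the empty no-swim group, and from 1.68 to 1.87 and from 0.93 to 1.13 in the miR-21 swim against the empty swim group. No paired analysis was possible because the labels give no replicate numbers that the groups share. For the changes given here, the cause was not tested. Rab4a at 48 to 77 reads per empty swim library has the widest counting error of the 9 genes. Leaving out the 3 libraries with high adipocyte markers was chosen after seeing the data.

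The number of genes that changed in the empty swim against the empty no-swim group (1007) was 164 with number series as a term, 1555 without the 3 libraries and 607 to 1922 when 1 library was left out. For the miR-21 against the empty vector without swimming (304) it was 150 with no filter, 1235 in DESeq2, 911 with number series, 771 without the 3 libraries and 17 to 2885 with 1 library left out. For the vectors with swimming (618) it was 970 in DESeq2, 2318 without the 3 libraries and 330 to 1871 with 1 left out. For swimming under the miR-21 vector (23) it was 0 with no filter, 378 in DESeq2, 1076 with number series, 134 without the 3 libraries and 0 to 86 with 1 left out. For the interaction (73) it was 719 in DESeq2, 25 with number series and 18 to 358 with 1 left out.

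Among the endosomal genes, 1 was called by DESeq2 between the vectors without swimming, where it called 9.15% of all genes. With 1 library left out 0 to 5 were called, and the 5 came where 21.3% of all genes were called. Between the vectors with swimming 1 was called by DESeq2 (7.19% of all genes), 2 with number series (5.24%) and 3 without the 3 libraries (17.3%). With 1 left out 0 to 3 were called, and the 3 came where 13.8% of all genes were called. In the other 3 comparisons 0 were called with any library left out. In those fits 4.50% to 14.2% of all genes were called for swimming under the empty vector. The share was at most 0.632% for swimming under the miR-21 vector and 0.134% to 2.63% for the interaction.

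Values that changed sign were as follows. In the empty swim against the empty no-swim group, Rab5c was 0.0069 with no filter. With number series it was 0.44, Rab4b 0.35, Rab11b -0.070, Rab5a -0.13 and Rab5b -0.20. Without the 3 libraries Rab4b was 0.035, Rab5a -0.060, Rab5b -0.016 and Rab5c 0.074. With 1 library left out Rab4b ran from -0.14 to 0.00025, Rab5a from -0.034 to 0.064, Rab5b from -0.010 to 0.049 and Rab5c from -0.046 to 0.033. Between the vectors without swimming, Wdfy1 ran from -0.087 to 0.012. Between the vectors with swimming, Rab4b was -0.052 with number series and -0.12 without the 3 libraries, and with 1 left out ran from -0.12 to 0.24, and Rab11b from -0.014 to 0.097. With swimming under the miR-21 vector, Rab5b was -0.11 and Wdfy1 -0.011 with number series, and Rab4a 0.030, Rab5c -0.15 and Rab7 0.0089 without the 3 libraries. With 1 left out Rab4a ran from -0.16 to 0.032, Rab5b from -0.030 to 0.10, Rab5c from -0.15 to 0.097, Rab7 from -0.10 to 0.011 and Wdfy1 from -0.017 to 0.025. In the interaction, Rab7 was 0.00074 with RLE scaling, 0.0030 with a mean of at least 1 CPM, 0.00029 in DESeq2, 0.067 with number series and 0.11 without the 3 libraries. Rab5b was -0.0053 with no filter, and Rab5c -0.15 with number series and -0.23 without the 3 libraries. With 1 left out Rab5b ran from -0.052 to 0.076, Rab5c from -0.15 to 0.099 and Rab7 from -0.041 to 0.070.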

Other observations

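Beyond the endosomal genes, a few others had levels in the empty swim group that lay apart from all 17 other libraries. They were chosen after their values were seen and are given with no test. Gm41885, a predicted gene, had 0 to 2 reads per library in the empty swim group, against 38 to 264 in the miR-21 swim group, 46 to 254 in the miR-21 no-swim group and 53 to 421 in the empty no-swim group. Pydc3, a pyrin-domain gene with close paralogs that may share reads, lay on the other side, with 38 to 62 reads in the empty swim group, 1 to 8 in the miR-21 swim group, 0 to 3 in the miR-21 no-swim group and 1 to 9 in the empty no-swim group. Cp, which encodes the copper protein ceruloplasmin, was at 88.3 to 126 CPM in the empty swim group, against 153 to 228 CPM in the miR-21 swim group, 156 to 186 CPM in the miR-21 no-swim group and 160 to 256 CPM in the empty no-swim group.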
